A study of Mus musculus with 9 samples.

Results

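The voltage-gated and related potassium, sodium and calcium channel genes were followed across 9 RNA-seq libraries of mouse striatum. They are the protein-coding genes whose GRCm38 symbol starts with Kcn, with Cacn, or with Scn and a digit, and 134 of the 54532 gene IDs in the count files met that rule. The potassium family held 94 genes, the sodium family 14 and the calcium family 26. Auxiliary subunits were included, since the rule reads symbols, and 5 further IDs with matching symbols, antisense or other noncoding transcripts, were left out. The mice had a C57BL/6J background, and 3 libraries each came from cGAS KO, STING KO and wild-type (WT) animals. Per the labels, CRISPR-Cas9 was used to make both knockouts, and the series describes all brains as taken after an ischemic stroke, so the WT libraries share that injury. No time after the stroke and no age is given in the sources used here, and libraries of uninjured striatum were not analysed here. Whether each replicate is its own animal is not stated in the labels, so the spread behind each p-value is that between libraries and may be technical.

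Potassium channels repolarize neurons and hold them near rest, sodium channels carry the upstroke of the action potential, and calcium channels couple depolarization to transmitter release, firing pattern and transcription. Each channel is built from a pore-forming protein, and auxiliary subunits set its trafficking and gating. Striatal projection neurons are known for a very negative resting potential held by inward rectifier potassium channels, for A-type potassium current that delays their first spike, and for a strong expression of the sodium channel subunit Scn4b. cGAS detects cytosolic DNA, and its cyclic dinucleotide product activates the membrane protein STING.

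Library totals ranged from 14129021 to 21286775 counts. In each group 1 library held fewer rare transcripts than the others: replicate 2 of both knockouts and WT replicate 3 had 2280 to 4723 genes with 1 to 9 counts, against 7096 to 7927 in the other 6. These 3 are called the libraries of low complexity, a split chosen with the data in view, and values without them follow for results that they moved. Expression within a gene is given as CPM, the count scaled to the TMM-normalized library size. Cgas ran from 0.262 to 1.1 CPM in the cGAS KO libraries, under all WT libraries (1.4 to 3.18 CPM), while Sting1 overlapped between STING KO (1.05 to 2.18 CPM) and WT (1.34 to 4.06 CPM). Which exons were edited is not stated, and counts summed over a whole gene check a knockout only in part. All 10 projection neuron markers were detected in each library, and their summed level was 8350 to 10200 CPM in 8 libraries and 4960 CPM in WT replicate 3. The sum hid opposite shifts in replicate 2 of cGAS KO and STING KO. Penk was at 407 and 336 CPM there against 863 to 1090 CPM in the 6 libraries without low complexity. Pde10a was at 2450 and 2550 CPM against 1560 to 2100 CPM in those 6. Cortical neuron markers, which a striatal dissection can take in, summed to 71.7 to 1070 CPM, and choroid plexus markers to 28.5 to 2740 CPM. In bulk tissue, fewer cells of a type and less RNA per cell cannot be told apart.

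Of the 134 channel genes, 118 passed the filter on low counts (82 potassium, 12 sodium, 24 calcium), and the other 16 averaged at most 0.362 CPM. The untested genes were Kcna7, Kcna10, Kcnv2, Kcnj1, Kcnj15, Kcnk7, Kcnk15, Kcnk16, Kcnk18, Kcne1, Kcne3, Kcnmb3, Scn4a, Scn10a, Cacna1s and Cacng6. In 6 of the 16 no library held more than 3 counts, a floor of 0.135 to 0.226 CPM at these depths. Scn4a and Cacna1s are the skeletal muscle pore genes of their families, and Scn10a belongs to sensory neurons. Together the 134 genes took 1.24% to 1.32% of the counts in the 6 libraries without low complexity and 1.46% to 1.7% in the 3 of low complexity.

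Levels of different genes were compared as mean CPM per kilobase of exon over the 9 libraries. Summed over members, the potassium family stood at 1050, the sodium family at 546 and the calcium family at 506 CPM per kilobase, and at 985, 589 and 471 without the libraries of low complexity. Within the potassium family the voltage-gated (Kv) class held 45.5% of that sum, auxiliary subunits 21.4%, inward rectifiers (Kir) 16.4%, 2-pore leak channels (K2P) 9.71%, the large-conductance and sodium-activated Slo class 5.52% and the small-conductance calcium-activated class (SK) 1.19%. Without the libraries of low complexity the Kv share was 41.8% and that of auxiliary subunits 25.3%, with the classes in the same order. The highest Kv gene per length was Kcnd2, an A-type channel, at 47.6 CPM per kilobase. Among inward rectifiers Kcnj4 led at 80.8 CPM per kilobase, ahead of the astrocyte channel Kcnj10 at 40.5. Kcnip2, a calcium sensor that binds A-type channels, led the auxiliary subunits at 79.7, followed by Kcnab2, a beta subunit of Kv channels, at 51.4. Kcnk2 at 48.8 and Kcnk1 at 32.7 were the top leak channels (34.9 and 33.5 without the libraries of low complexity), and the sodium-activated Kcnt1 at 37.8 stood above the calcium-activated Kcnma1 at 16.3 CPM per kilobase. The SK genes were lower, Kcnn3 at 6.62 and Kcnn2 at 3.27.

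In the sodium family the 4 beta subunits made up 83.0% of the summed level per length and the 10 pore genes 17.1%, or 88.2% and 11.8% without the libraries of low complexity. Scn4b, whose protein supports resurgent sodium current, was the highest of all 134 members at 288 CPM per kilobase. Scn2b was at 71.8. The leading pore genes were Scn8a at 35.4 and Scn2a at 34.1 CPM per kilobase, the main channels of the axon initial segment. Their order turned without the libraries of low complexity, with Scn2a at 26.4 and Scn8a at 23.1. Scn1a, the pore gene known for fast-spiking interneurons, was at 11.1.

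In the calcium family the gamma subunits held 41.1% of the summed level per length, pore genes 25.1%, beta subunits 22.5% and alpha2delta subunits 11.4%. The leading gamma genes, Cacng4 at 71.5 and Cacng7 at 43.8 CPM per kilobase, encode partners of AMPA-type glutamate receptors rather than parts of a calcium pore. Cacna1e, the R-type pore, was at 26.1, and the T-type pores Cacna1i and Cacna1h were at 23.9 and 22.8. Over the 6 libraries without low complexity the 3 were at 20.6, 20.1 and 21.1, with Cacna1h first. Cacnb1 and Cacnb4, which carry pores to the membrane, were close at 36.8 and 35.2, and Cacna2d3 and Cacna2d1 were at 25.9 and 17.2. Over those 6 libraries Cacnb3 (37.4) stood above Cacnb4 (28.0), and Cacna2d2 (13.6) level with Cacna2d1 (13.4). With the longest annotated transcript in place of the union of exons, 19 of the 24 members that led their classes did so again.

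**Figure D1:**
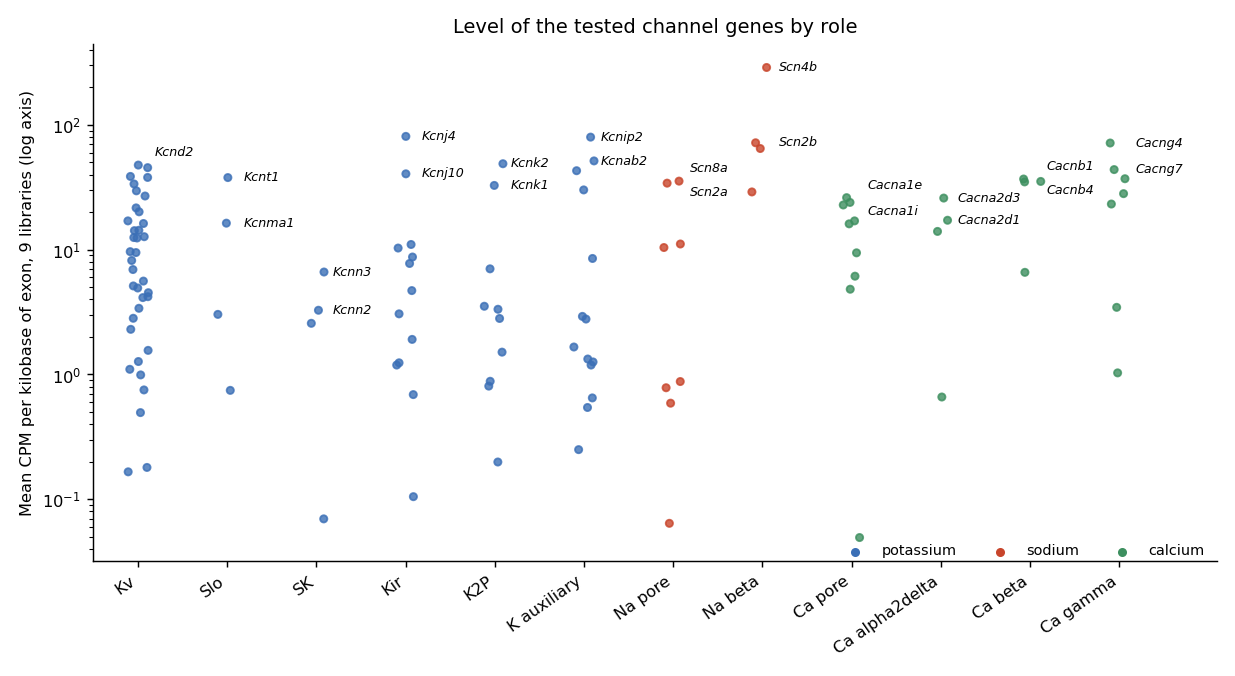
Mean CPM per kilobase of exon over 9 libraries (log axis) for the 118 tested channel genes, 1 point per gene, grouped by role on the horizontal axis and coloured by family. Scn4b stands highest at 288, and the highest 1 or 2 members of each class are named.

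Channel genes varied between libraries along the axis of low complexity, and long genes did so most. The level of each gene in a library of low complexity was set against the mean of the other 2 libraries of its group as a difference of log2(CPM + 0.5), and the 3 differences were averaged. All 21 tested channel genes with at least 10000 bases of exon were higher in the libraries of low complexity, with a median difference of 0.84. Of all tested genes of that length, 89.0% were higher, with a median of 0.5. Of 61 channel genes under 5000 bases, 27 were higher (44.3%, against 33.7% of all tested genes of that length). Spearman's rho between exon length and this difference was 0.52 over the 118 channel genes, 0.45 over 82 potassium, 0.84 over 12 sodium and 0.64 over 24 calcium genes, against 0.37 over all 17821. These are descriptions across genes that share the same 9 libraries, and genes are not independent replicates.

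The split followed subunit type in the sodium family. Of the 8 tested pore genes, which are long, 7 were higher in the libraries of low complexity with a median of 0.59. None of the 4 shorter beta genes was, with a median of -0.59. Scn8a was at 307 to 449 CPM in the 6 other libraries and at 823, 915 and 1110 CPM in the 3 of low complexity. Scn2b was at 330 to 484 CPM in those 6 and at 312, 253 and 244 CPM, in the order cGAS KO, STING KO and WT, in the 3 libraries of low complexity. The summed pore level divided by the summed beta level, both in CPM, was 0.34 to 0.452 in the 6 and 1.01, 1.02 and 2.16 in the 3. Each genotype holds 1 library with such a ratio, and within the 6 others the ratios of the 3 genotypes lay in the narrow range given.

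Outside the sodium family the largest differences were 1.94 for Kcnh7, a Kv channel of the slowly deactivating ERG class, 1.87 for the silent Kv subunit Kcng3, 1.63 for the G protein-gated rectifier Kcnj6 and 1.57 for Cacng2. Kcnh7 was at 24.9 to 48.9 CPM in the 6 libraries and at 90.8, 107 and 282 CPM in the 3. Kcnj6 was not higher in all 3 groups. Its 4.67 CPM in STING KO replicate 2 lay between 5.72 and 4.36 CPM in the other STING KO libraries, while WT replicate 3 reached 44.9 CPM. At the other end were Kcne1l at -2.14, Kcnj8, the pore of a vascular ATP-sensitive channel, at -1.93 and Kcnj14 at -1.79. Kcng3 and Cacng2 are not among the longest genes, at 3356 and 5510 bases of exon. The share of this spread that comes from RNA quality was not tested.

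**Figure D2:**
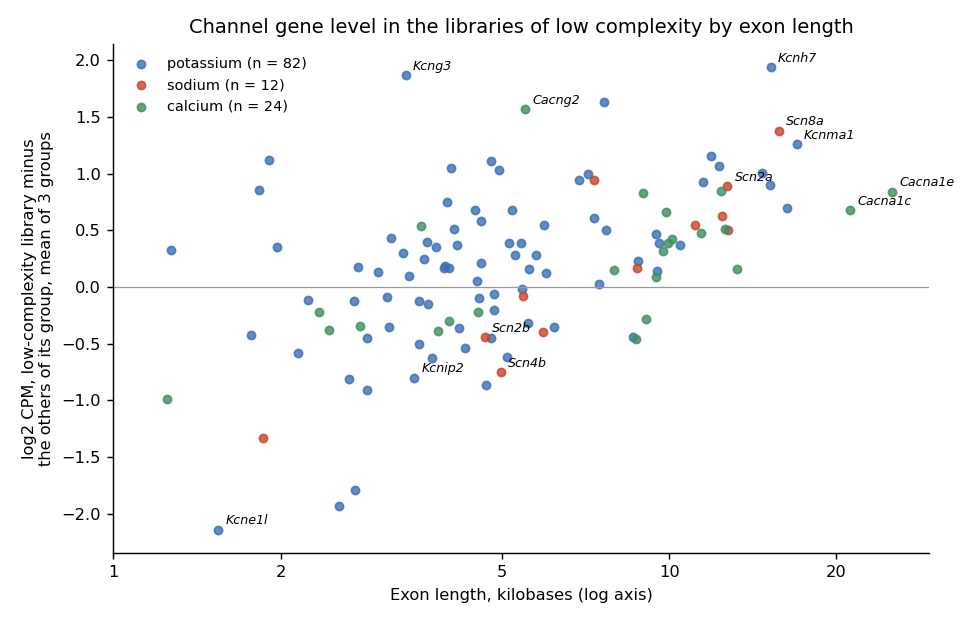
Difference in log2(CPM + 0.5) between the library of low complexity and the other 2 libraries of its group, averaged over 3 groups (vertical axis), against exon length in kilobases (log axis) for 118 channel genes coloured by family. All 21 genes of at least 10000 bases lie above 0, with Kcnh7 highest at 1.94 and Kcne1l lowest at -2.14.

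Spread between libraries, whatever its source, set the precision of every comparison. The median coefficient of variation over the 9 libraries was 32.5% for potassium, 38.3% for sodium and 26.6% for calcium genes, against 28.7% for all tested genes. Over the 6 libraries without low complexity it was 18.2%, 14.8%, 14.8% and 16.5%. Cacng3 and Scn3b were among the steadiest, with 5.92% and 6.3% over those 6.

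The first comparison asked how channel transcripts differ in the striatum of mice without cGAS. The Kv genes Kcns1, Kcna5 and Kcna4 had the smallest p-values on the higher side, and Kcne2, Scn1a and Kcnj13 on the lower. No channel gene passed the threshold: edgeR's quasi-likelihood test called 0 of 118 at a Benjamini-Hochberg adjusted p under 0.05 (background 0% of 17821 genes). DESeq2 without the count filter also called 0 channel genes (background 0.00314%), as did limma-voom (background 0%) and edgeR without the libraries of low complexity (background 0%). Every channel gene had an adjusted p of 0.9999 by edgeR. At an unadjusted p under 0.05, edgeR placed 3 channel genes higher (2.54%, background 1.04%) and 3 lower (2.54%, background 0.982%). The family medians of the log2 fold change were -0.1 for potassium, -0.21 for sodium and -0.02 for calcium genes, against -0.01 over all genes. Without WT replicate 3 the medians were 0.11, 0.07 and 0.15 in the same order. Among single libraries left out, only this one turned the potassium and sodium signs. The calcium median also turned, to 0.02 without cGAS KO replicate 1 and 0.03 without cGAS KO replicate 3.

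Kcns1, a silent Kv subunit that modifies the current of delayed rectifiers, gave 10.8, 9.28 and 10 CPM in cGAS KO, 11.4, 9.34 and 13 CPM in STING KO, and 5.96, 6.17 and 6.86 CPM in the WT libraries. All 6 knockout libraries were above all 3 WT libraries. The gene (ENSMUSG00000040164) lies on chromosome 2 at 164163619 to 164171113, minus strand of GRCm38, overlaps no other annotated gene, and had 97 to 232 counts per library. The log2 fold change from WT to cGAS KO was 0.67 (SE 0.22, edgeR unadjusted p = 0.0138, adjusted p = 0.9999), and 0.78 (SE 0.2) without the libraries of low complexity (adjusted p = 0.971).

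Kcna5, a delayed rectifier pore (ENSMUSG00000045534, chromosome 6, 126532551 to 126535412, minus strand), gave 33.4, 28.9 and 37.3 CPM in cGAS KO against 23.3, 23.6 and 15.5 CPM in WT. The groups did not overlap, and the log2 fold change was 0.67 (SE 0.23, edgeR unadjusted p = 0.0164). In STING KO it was at 29.7, 21.5 and 30.8 CPM, which overlapped with WT. Kcna4, an A-type pore, was at 64.2, 84.8 and 88 CPM in cGAS KO against 66, 61 and 51.5 CPM in WT, with overlap and a log2 fold change of 0.41 (SE 0.17, edgeR unadjusted p = 0.0416). Without the libraries of low complexity the value for Kcna4 was 0.26. Cacng8, an AMPA receptor partner, was at 84.3, 67 and 67.4 CPM against 51.5, 51.4 and 57 CPM in WT, without overlap. Its log2 fold change was 0.45 (SE 0.21, edgeR unadjusted p = 0.0547).

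On the lower side Scn1a (ENSMUSG00000064329, chromosome 2, 66270778 to 66440840, minus strand) gave 87.6, 97 and 94.9 CPM in cGAS KO against 102, 129 and 231 CPM in WT. The groups did not overlap, but the highest WT value came from the library of low complexity, and Scn1a has 11146 bases of exon. The log2 fold change was -0.72 (SE 0.3, edgeR unadjusted p = 0.0361) over 9 libraries and -0.34 (SE 0.15) over the 6 others. Kcnt2, a sodium-activated potassium channel, was at 13.8, 20.4 and 9.43 CPM in cGAS KO against 13.1, 22.1 and 59 CPM in WT. WT replicate 3 held the highest level, and the log2 fold change was -1.11. Without the libraries of low complexity it was -0.59. The other 2 genes lower at an unadjusted p under 0.05, Kcne2 and Kcnj13, are described with the choroid plexus markers below.

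Groups did not overlap for 7 channel genes higher in cGAS KO (5.93%, background 4.0%) and 5 lower (4.24%, background 4.0%), shares near those of all genes. The higher ones were Kcna5, Kcns1, Cacng8, Cacnb1, Kcnn3, Kcnj11 and Scn3b, and the lower ones Scn1a, Kcnj2, Kcng4, Kcnu1 and Cacna1f, of which Cacna1f was at or under 0.707 CPM in the 6 libraries compared. By class, all 4 Slo genes had negative fold changes (median -0.62) and 7 of 8 sodium pore genes did (median -0.29), while 6 of 7 gamma genes were positive (median 0.37). Over all genes 48.5% were positive. The medians without the libraries of low complexity were -0.33 for Slo, -0.02 for sodium pore (5 of 8 negative) and 0.13 for gamma genes. No test was made of these classes.

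**Figure D3:**
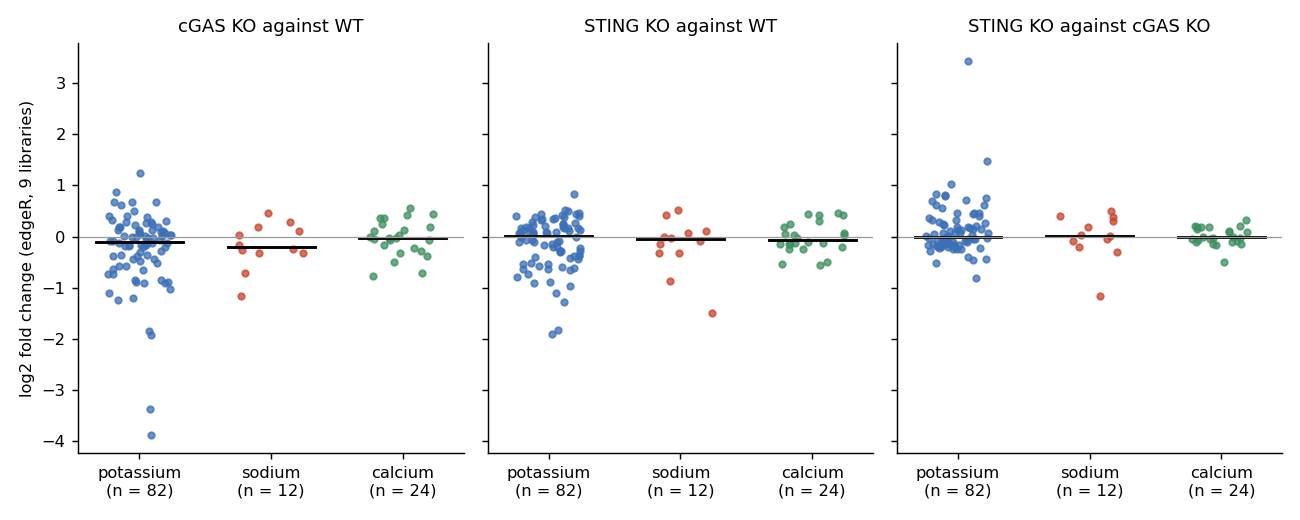
Log2 fold change (edgeR, 9 libraries) of each tested channel gene in 3 comparisons, with families on the horizontal axis and bars at the family medians, which lie between -0.21 and 0.02. Most points lie within 1 of zero, and the lowest point, Kcnj13 at -3.88 in cGAS KO against WT, had an adjusted p of 0.9999.

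The comparison of STING KO with WT, which shares the WT libraries with the first, again had Kcns1 at the smallest p, now with Cacnb1 and, on the lower side, Kcng4. By edgeR 0 of 118 channel genes passed (background 0%), and each had an adjusted p of 0.9999. DESeq2 called 0 channel genes (background 0.0314%), and so did limma-voom (background 0%). At an unadjusted p under 0.05, edgeR placed 2 channel genes higher (1.69%, background 0.898%) and 1 lower (0.847%, background 0.735%). Groups did not overlap for 2 channel genes higher, Kcns1 and Cacnb1 (1.69%, background 3.40%), and for 1 lower, Kcng4 (0.847%, background 3.67%). The medians were 0.01 for potassium, -0.05 for sodium and -0.07 for calcium genes, against 0 over all genes. Without WT replicate 3 they were 0.13, 0.15 and 0.2.

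Kcns1, whose 9 values are given above, had a log2 fold change of 0.83 (SE 0.22, edgeR unadjusted p = 0.00424, adjusted p = 0.9999). Without the libraries of low complexity it was 1 (SE 0.2, unadjusted p = 0.000868, adjusted p = 0.447), the lowest of the adjusted p-values over 17 alternatives, which reached 1. Cacnb1 (ENSMUSG00000020882, chromosome 11, 98001508 to 98023034, minus strand) gave 210, 162 and 191 CPM in STING KO, 179, 180 and 170 CPM in cGAS KO, and 150, 146 and 113 CPM in the WT libraries. Both knockouts lay above WT without overlap. The log2 fold change was 0.46 (SE 0.18) in STING KO (edgeR unadjusted p = 0.0267) and 0.37 (SE 0.18) in cGAS KO (unadjusted p = 0.0625), or 0.43 and 0.24 (SE 0.13 for both) without the libraries of low complexity. Annotated genes on the opposite strand overlap Cacnb1 and many other members, including Cacng8, Scn1a, Scn3b, Kcnt2, Kcnb2, Kcnj6, Kcnj9, Kcnk3 and Kcnk13, and without a stated strand setting such reads cannot be told apart.

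Kcnh4, a forebrain Kv gene of the ELK class (ENSMUSG00000035355, chromosome 11, 100740376 to 100759942, minus strand), gave 91.3, 126 and 81.4 CPM in STING KO against 68.4, 70 and 82 CPM in WT, with overlap. The log2 fold change was 0.44 (SE 0.21, edgeR unadjusted p = 0.0607). Cacng8 in STING KO was at 85.8, 51.6 and 76.5 CPM, of which 1 library lay within the WT range. Its log2 fold change was 0.42 (SE 0.21), and 0.66 (SE 0.15) without the libraries of low complexity (adjusted p = 0.499, of a range from 0.499 to 1 over 17 alternatives).

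Kcng4, a silent Kv subunit (ENSMUSG00000045246, chromosome 8, 119623854 to 119635680, minus strand), was near the low end of what these depths resolve, at 1.18, 1.25 and 1.12 CPM in STING KO against 1.94, 2.58 and 4.17 CPM in WT. The groups did not overlap, and the log2 fold change was -1.28 (SE 0.45, edgeR unadjusted p = 0.0177), or -0.97 (SE 0.4) without the libraries of low complexity. Scn7a, a sodium-sensing relative of the voltage-gated pores, was at 2.92, 1.74 and 1.73 CPM in STING KO against 2.17, 4.3 and 11.6 CPM in WT. Its log2 fold change of -1.49 was -0.47 without the libraries of low complexity. Kcnb2, a delayed rectifier, was at 11.6, 16.4 and 15 CPM against 12.6, 17.9 and 54.1 CPM, and its -0.97 was -0.19 without them. Kcnj6 was at 5.72, 4.67 and 4.36 CPM against 2.3, 5.26 and 44.9 CPM, and its -1.82 became 0.42 without them, a change of direction. In these 3 genes WT replicate 3 was the highest of the 9 libraries.

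Without the libraries of low complexity, channel genes at an unadjusted p under 0.05 numbered 11 higher in STING KO (9.24%, background 4.02%) and 4 lower (3.36%, background 2.89%), with 0 passing after adjustment by edgeR (background 0.0227%). Those higher included Kcns1, Cacng8, Kcnk3, Kcnf1, Cacnb1, Kcnc4, Kcng3, Kcnh3, Kcna3 and Kcna5. Kcnk3, an acid-sensitive leak channel, was at 14.4 and 14.3 CPM in the remaining STING KO libraries, against 5.73 and 8.48 CPM in the remaining WT libraries. WT replicate 3 held 23.2 CPM, and the log2 fold change was 0.25 over 9 libraries and 1.02 without those of low complexity. In cGAS KO against WT the same fit had 6 channel genes higher (5.04%, background 2.44%) and 3 lower (2.52%, background 1.77%). For STING KO set against cGAS KO it had 7 higher (5.88%, background 1.99%), among them Kcnf1, Kcnj9, Kcnc4, Kcnk4, Kcnk12 and Kcng3, and 4 lower (3.36%, background 1.70%), among them Cacna2d2, Kcnn3 and Kcng1. The second comparison shares its WT libraries, and the third its knockout libraries, with the others. Groups of 2 libraries carry little information about spread, and these fits were chosen after the data were seen.

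**Figure D4:**
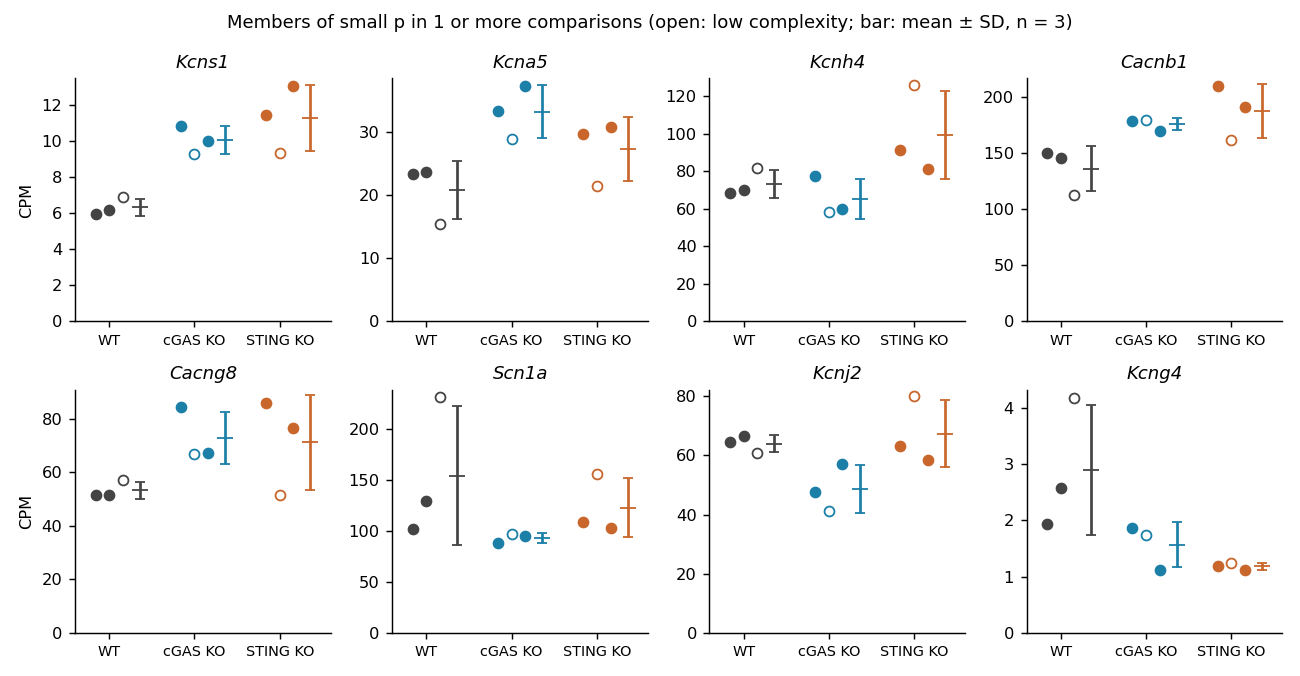
CPM of 8 channel genes in each library, in the order of the replicate numbers 1 to 3 within WT, cGAS KO and STING KO; open points are the libraries of low complexity, and bars are the mean ± SD (n = 3). Kcns1 and Cacnb1 lie higher in all 6 knockout libraries than in WT, and the highest WT values of Scn1a (231) and Kcng4 (4.17) come from the library of low complexity.

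The 2 knockouts were then set against each other, a comparison that tests the difference between the 2 losses directly. By edgeR 0 of 118 channel genes passed (background 0%), with an adjusted p of 0.9999 for each. DESeq2 called 0 channel genes (background 0.0251%), limma-voom 0 (background 0%) and edgeR without the libraries of low complexity 0 (background 0.0170%). At an unadjusted p under 0.05, edgeR placed 2 channel genes higher in STING KO (1.69%, background 0.825%) and 0 lower (background 0.623%). The medians were -0.01 for potassium, 0.02 for sodium and -0.02 for calcium genes, against 0.01 over all genes. Kcns1 differed by 0.16 (SE 0.22) and Cacnb1 by 0.09 (SE 0.18) between the knockouts, both within their error.

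Kcnh4 was the leading gene here. Its 77.5, 58.4 and 59.7 CPM in cGAS KO lay below all 3 STING KO libraries, and the log2 fold change was 0.61 (SE 0.21, edgeR unadjusted p = 0.0153). The value was 0.33 (SE 0.15) without the libraries of low complexity, and STING KO replicate 2 held the highest level. Kcnj2, the classical inward rectifier that holds the resting potential (ENSMUSG00000041695, chromosome 11, 111066164 to 111076821, plus strand), was at 47.6, 41.1 and 57.1 CPM in cGAS KO. The STING KO libraries held 63.2, 80.2 and 58.6 CPM and the WT libraries 64.5, 66.4 and 60.8 CPM, so cGAS KO lay below both without overlap. The log2 fold change of STING KO against cGAS KO was 0.47 (SE 0.18, edgeR unadjusted p = 0.0289), or 0.22 (SE 0.14) without the libraries of low complexity. In cGAS KO against WT it was -0.39 (SE 0.18, edgeR unadjusted p = 0.0575), or -0.32 (SE 0.14) without the libraries of low complexity.

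Kcnj9, a G protein-gated rectifier, was at 63.4, 21.5 and 48.9 CPM in STING KO and 36.7, 16.9 and 22.7 CPM in cGAS KO, with overlap and a log2 fold change of 0.81 (SE 0.42, edgeR unadjusted p = 0.0835). On the lower side the smallest p-values were above 0.05 and belonged to Scn7a (-1.16, SE 0.69, and -0.41 without the libraries of low complexity), Scn3b (-0.21, SE 0.15), Kcna4 (-0.24, SE 0.17) and Cacng5 (-0.5, SE 0.39). Of these, Scn3b did not overlap between the knockouts, at 155, 150 and 145 CPM in STING KO and 171, 175 and 172 CPM in cGAS KO. Cacng5 rested on cGAS KO replicate 1 at 27 CPM, and without that library its fold change was 0.12. Groups did not overlap for 5 channel genes higher in STING KO, among them Kcnh4, Kcnj2, Kcnc2 and Scn1a (4.24%, background 3.63%), and for 2 lower, Kcnj11 and Scn3b (1.69%, background 3.72%).

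Kcnj13 and Kcne2 are known for the choroid plexus, the epithelium that secretes cerebrospinal fluid, where they encode an inward rectifier and a small partner of Kv channels. Kcnj13 (ENSMUSG00000079436, chromosome 1, 87386363 to 87394729, minus strand) reached 11 CPM in WT replicate 1 and 7.88 CPM in STING KO replicate 2, and at 0 to 0.778 CPM in the other 7 libraries. Kcne2 (ENSMUSG00000039672, chromosome 16, 92292389 to 92298129, plus strand) was at 13.1 and 3.14 CPM in those 2 libraries and at 0.151 to 1.18 CPM elsewhere. They were the only 2 of 118 channel genes with these 2 libraries as the highest of the 9 (1.69%, background 2.22%), a share at or under that of all genes. Summed choroid plexus markers were 2740 CPM in WT replicate 1, 459 CPM in STING KO replicate 2 and 28.5 to 215 CPM in the other 7, and Ttr, the most abundant, was at 2490, 322 and 4.15 to 164 CPM. None of the 6 markers was at 0 in any library.

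In cGAS KO against WT the log2 fold change of Kcnj13 was -3.88 (SE 1.69, edgeR unadjusted p = 0.0462) and that of Kcne2 was -3.38 (SE 1.36, unadjusted p = 0.033). The 3 cGAS KO libraries held 11, 0 and 2 counts of Kcnj13 and the WT libraries 244, 5 and 11, so WT replicate 1 made the difference. Over the alternatives the value for Kcnj13 ran from -5.73 to -0.91 and that for Kcne2 from -3.92 to -0.73. The part of choroid plexus tissue in these 2 values was not tested. Kcnj13 lies within the bounds of Gigyf2 on the opposite strand, so its counts are uncertain without a stated strand setting.

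The promoters of both genes are shown because both were highest in the same 2 libraries. These are the 250 bases before the start annotated by RefSeq on GRCm38.p6, 5′ to 3′ on the strand of the gene, with capitals marking a match to TATAAA.
Kcnj13, chr1:87394730-87394979, minus strand: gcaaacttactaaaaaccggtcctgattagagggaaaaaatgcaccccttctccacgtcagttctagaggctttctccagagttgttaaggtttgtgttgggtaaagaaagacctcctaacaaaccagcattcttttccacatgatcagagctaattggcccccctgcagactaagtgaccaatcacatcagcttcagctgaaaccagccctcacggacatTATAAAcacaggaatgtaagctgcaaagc
Kcne2, chr16:92292139-92292388, plus strand: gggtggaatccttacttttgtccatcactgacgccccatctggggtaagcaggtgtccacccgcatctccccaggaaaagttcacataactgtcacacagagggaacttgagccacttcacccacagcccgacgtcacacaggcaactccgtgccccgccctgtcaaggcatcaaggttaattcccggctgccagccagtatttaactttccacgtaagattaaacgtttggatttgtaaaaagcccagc
The Kcnj13 window holds TATAAA once, starting 29 bases before the annotated start, and this Kcne2 window does not hold it. On either strand TATAAA was in 12.4% of 32851 RefSeq windows of this length and in 3.7% of the 135 windows of the 99 channel genes with an entry. The core motif of OTX factors, TAATCC, was in 6.25% and 3.7%, and in neither of these 2 windows. A match is a description of the letters only.

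Cortical neuron markers differed between libraries of 1 genotype. The summed markers were lowest in WT replicate 1 at 71.7 CPM and cGAS KO replicate 3 at 76.1 CPM, were 241 to 617 CPM in the 6 libraries between, and reached 1070 CPM in WT replicate 3. Slc17a7, the vesicular glutamate transporter of cortical neurons, was at 47.3 and 58 CPM in the lowest 2 and 823 CPM in the highest. Of 118 channel genes, 21 had WT replicate 1 and cGAS KO replicate 3 as the lowest 2 of the 6 libraries without low complexity (17.8%, background 9.17%), a pattern looked for after the values were seen. They included the G protein-gated rectifiers Kcnj3, Kcnj6 and Kcnj9, the Shaw-class Kv genes Kcnc2 and Kcnc4, the leak channels Kcnk4, Kcnk9 and Kcnk12, and the T-type pore Cacna1g. Kcnc4 was at 8.04 and 8.19 CPM in those 2 libraries, 16.9 to 35.1 CPM in the other 4 of the 6 and 40.5 CPM in WT replicate 3. Kcnj6 was at 2.3 and 1.7 CPM, 4.29 to 5.72 CPM and 44.9 CPM in the same order. The pattern itself sets 1 WT and 1 cGAS KO library low, so a spread between replicates of these groups follows from the choice of genes. The part of cortical tissue in them was not tested.

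WT replicate 3, which has the highest cortical and the lowest projection neuron markers and is also a library of low complexity, was the highest of 9 libraries for 52 of 118 channel genes (44.1%, background 23.0%). By family these were 39 of 82 potassium, 5 of 12 sodium and 8 of 24 calcium genes. It was the lowest for 21 (17.8%, background 24.3%), among them genes of the projection neuron. Scn4b was at 661 CPM in it and 1080 to 1790 CPM in the other 8 libraries, Kcnj4 at 98.1 against 129 to 219 CPM, and Kcnip2 at 128 against 202 to 364 CPM. Scn2b, Kcnab1 and Cacna2d3 were also lowest there. The 3 properties of this library cannot be told apart.

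**Figure D5:**
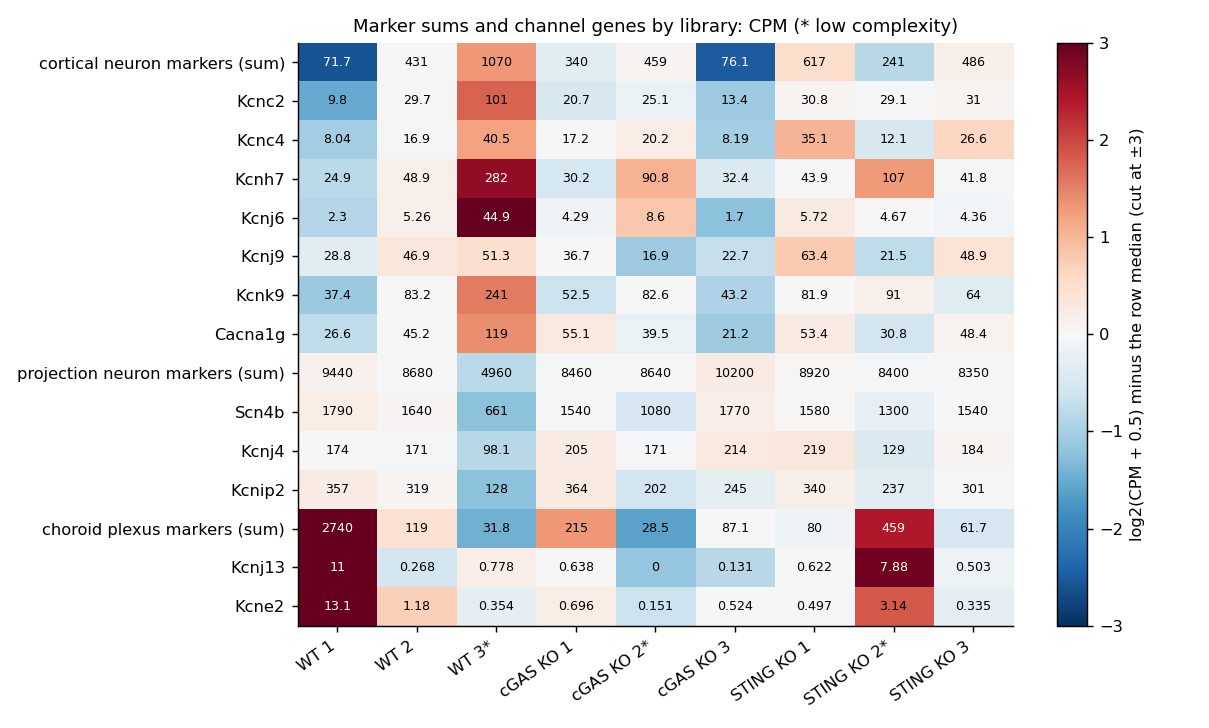
Summed CPM of cortical neuron, projection neuron and choroid plexus markers and CPM of 12 channel genes in each library (numbers), coloured by log2(CPM + 0.5) minus the row median; asterisks mark the libraries of low complexity. WT replicate 3 is highest for the cortical markers (1070) and Kcnj6 (44.9) and lowest for the projection neuron markers (4960) and Scn4b (661), while Kcnj13 and Kcne2 are highest with the choroid plexus markers in WT replicate 1.

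Channel genes known for a single cell type gave the same picture in the genotype comparisons: 0 of them passed. Scn4b had mean levels of 1360 ± 614 CPM in WT, 1460 ± 354 CPM in cGAS KO and 1470 ± 148 CPM in STING KO (SD, n = 3), with log2 fold changes of 0.1 and 0.11 against WT, or -0.05 and -0.14 without the libraries of low complexity. Kcnj4 and Kcnip2, also of projection neurons, had 0.41 and 0.01 in cGAS KO and 0.26 and 0.13 in STING KO. Kcnj4 without the libraries of low complexity had 0.28 and 0.22, and Kcnip2 turned to -0.15 and -0.08. Kcnj10, which clears potassium into astrocytes, was at 164 to 257 CPM in cGAS KO, 162 to 234 CPM in STING KO and 216 to 286 CPM in WT, with log2 fold changes of -0.12 and -0.31. Its partner Kcnj16 had -0.21 and -0.36, or 0.21 and -0.08 without the libraries of low complexity. Kcnj8 and Kcnmb1, of pericytes and smooth muscle, were at or under 5.76 CPM in each library, and Kcnj8 was at 0.697 to 0.83 CPM in the 3 libraries of low complexity against 2.75 to 5.53 CPM in the other 6. Kcnk13, a leak channel of microglia, had 0.28 and 0.35, or -0.23 and 0.18 without them. Kcnc1 and Kcnc2, the fast delayed rectifiers of fast-spiking interneurons, had -0.17 and -1.24 in cGAS KO and -0.2 and -0.63 in STING KO, where Kcnc2 ran from 9.8 to 101 CPM among the WT libraries alone. Leaving out the libraries of low complexity gave 0.13 and 0.25 for Kcnc1, and -0.21 and 0.65 for Kcnc2, so that 3 of the 4 directions turned.

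Related genes of membrane excitability were read from the same fit. By edgeR 0 of the 5 HCN and leak channel genes, 0 of the 13 channel partners and anchors and 0 of the 13 ion pumps and exchangers passed in any of the 3 comparisons (background 0%), and 1 of these 31 had an unadjusted p under 0.05 (higher in cGAS KO than WT: 3.23%, background 1.04%). That gene was Hcn2, a channel opened by hyperpolarization, with means of 308 CPM in cGAS KO against 192 CPM in WT (log2 fold change 0.68, SE 0.25, edgeR unadjusted p = 0.0235, and 0.49 without the libraries of low complexity). Both knockouts lay above WT without overlap, with STING KO libraries at 251, 329 and 220 CPM against 182, 187 and 206 CPM in WT. The log2 fold change in STING KO was 0.48 (SE 0.25), and 0.35 without the libraries of low complexity. The anchor Ank3, which ties sodium and M-current channels to the axon initial segment, averaged 962 CPM in cGAS KO, 864 CPM in STING KO against 952 CPM in WT.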

How the data were processed

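Polyadenylated RNA from 9 striatum libraries was sequenced on an Illumina instrument, per the labels' protocols. HISAT2, featureCounts and mm10 are named in the submitters' processing notes. For versions, annotation and strand setting: not given in the sources used here. The deposited values are counts per gene from the authors, whole numbers without normalization as far as the values show, and 54495 of 54532 Ensembl IDs matched GENCODE M21 on GRCm38. The 37 others held at most 0.036% of a library. Replicates differed by more than sampling noise in every pair (chi-square test over genes).

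edgeR 4.0.16 in R 4.3.3 fitted all 9 libraries with TMM factors, filterByExpr (17821 genes) and the quasi-likelihood test, adjusted over all genes by Benjamini-Hochberg with a threshold of 0.05. Alternatives were DESeq2 1.42.0, limma-voom (limma 3.58.1), RLE scaling, no filter, 6 libraries, a replicate block, leaving out each library, and fits without or adjusted for the libraries of low complexity, the last 2 chosen after seeing the data. The script was tested on simulated counts. Exon length is the union of annotated exons. CPM floors are 3 counts per library and cover counting error only.

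The members, lists and rules were chosen with earlier results of these data known. Named were the 2 highest members per length of each class, the 4 of smallest p in each direction of each comparison, and genes known for 1 cell type; a few genes these rules name are not reported here. Other members, such as those high or low in 1 library, were chosen after their values were seen.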

Additional observations from a re-analysis of the deposited data

How the results depend on the processing

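No channel gene passed the threshold under any alternative. Over all genes edgeR called 0 in each comparison. Of cGAS KO with WT, STING KO with WT and the 2 knockouts, DESeq2 without a count filter called 1, 10 and 8 genes. For the last 2 comparisons edgeR called 4 and 4 without a filter, 4 and 3 when the libraries of low complexity were left out, and 1 and 1 with low complexity as a covariate. Leaving out each library gave 0 calls. Of the alternatives, the covariate gave the most channel genes at an unadjusted p under 0.05 in cGAS KO against WT (14.4%, against 7.90% of all genes), and leaving out the libraries of low complexity the most in the other comparisons (12.7% against 6.90%, and 9.32% against 3.70%).

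The medians of the log2 fold change moved as single libraries were left out: for cGAS KO against WT they ran from -0.21 to 0.11 for potassium, -0.43 to 0.07 for sodium and -0.12 to 0.15 for calcium genes. In STING KO against WT the ranges were -0.14 to 0.13, -0.29 to 0.15 and -0.14 to 0.2, and in STING KO against cGAS KO -0.04 to 0.13, -0.14 to 0.21 and -0.08 to 0.17. Without the libraries of low complexity the sodium median in cGAS KO against WT was 0.02 and the calcium median in STING KO against WT 0.05. With single libraries left out, Kcnj6 in STING KO against WT ran from -2.33 to 0.38 (without WT replicate 3), and it was 0.42 without the 3 of low complexity. Cacng5, set between the knockouts, ran from -0.76 to 0.12 (without cGAS KO replicate 1). The cause was not tested.

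Same-numbered libraries did not deviate together in every pair (correlations from -0.53 to 0.57), so the numbers were not taken as pairs. With a replicate block 0 channel genes passed and the potassium, sodium and calcium medians were -0.12, -0.2 and -0.03 in cGAS KO against WT. Spread between the libraries limits these comparisons: the biological coefficient of variation was 38.8% over 9 libraries and 17.2% without the 3 of low complexity.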
